A study of Mus musculus with 2 samples.

Results

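The genes of arginine and polyamine metabolism described here are Arg1, Nos2, Slc7a2, Ass1, Odc1, Srm and Sat1, 7 of the 32285 gene features counted in the libraries. They were chosen by name for their place in the pathway, with earlier results of these data known, and all 7 were matched by symbol. They were measured by droplet-based single-cell RNA sequencing (10x Genomics, 3′ ends), in which each RNA molecule carries a unique molecular identifier (UMI) and each cell a barcode. The tumors were grown under the skin of female C57BL/6 mice aged 6 to 8 weeks from 1000000 injected SO cells, a mouse ovarian cancer line that lacks p53 and carries Hras and myc oncogenes. WT mice were compared with TSK (tight skin) mice, which carry a mutant copy of the fibrillin-1 gene Fbn1 in every cell of the host but not in the injected cancer cells. Tumors of several mice were pooled by genotype and each pool gave 1 library, so differences between mice, pools and genotypes cannot be told apart and no test between genotypes was possible.

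Arginine stands where several routes of macrophage metabolism part. Cationic amino acid transporters such as Slc7a2 bring it into the cell, and argininosuccinate synthase (Ass1) begins its resynthesis from citrulline. Inducible nitric oxide synthase (Nos2) turns arginine into nitric oxide and citrulline, whereas arginase 1 (Arg1) splits it into urea and ornithine. Ornithine decarboxylase (Odc1) makes putrescine from ornithine, spermidine synthase (Srm) makes spermidine from putrescine, and spermidine/spermine acetyltransferase (Sat1) marks polyamines for breakdown and export. Arginase is widely used as a sign of alternatively activated and tumor macrophages, Nos2 as a sign of inflammatory ones, and Odc1 is a classical target of Myc.

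On the GRCm38 annotation the genes lie apart on 7 chromosomes: Arg1 at chr10:24915221-24927484 (minus strand), Nos2 at chr11:78920787-78960254 (plus), Slc7a2 at chr8:40862396-40922308 (plus), Ass1 at chr2:31470207-31520672 (plus), Odc1 at chr12:17544794-17551505 (plus), Srm at chr4:148591503-148594993 (plus) and Sat1 at chrX:155213132-155216449 (minus). Promoter sequence from RefSeq (GRCm38.p6) was at hand for 3 of the 7, Ass1, Odc1 and Sat1. The promoters of Odc1 and Sat1, the enzymes at the head of polyamine synthesis and of polyamine breakdown, are shown 5′ to 3′ because their RNAs peaked in different cells. Each run ends upstream of the annotated gene, at chr12:17544623-17544793 on the plus strand for Odc1 and at chrX:155216450-155216699 on the minus strand for Sat1, and capitals mark a GC box (GGGCGG on either strand), the motif of Sp1-type factors.
Odc1: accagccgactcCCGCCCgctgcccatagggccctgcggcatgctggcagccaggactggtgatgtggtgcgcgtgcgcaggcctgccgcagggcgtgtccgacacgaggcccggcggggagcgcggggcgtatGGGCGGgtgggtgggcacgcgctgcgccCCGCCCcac
Sat1: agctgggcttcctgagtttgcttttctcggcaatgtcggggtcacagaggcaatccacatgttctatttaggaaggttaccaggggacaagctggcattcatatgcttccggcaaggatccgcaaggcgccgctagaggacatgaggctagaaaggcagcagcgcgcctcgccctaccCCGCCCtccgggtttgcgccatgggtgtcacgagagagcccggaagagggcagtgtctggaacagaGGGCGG
In the 250 bases upstream of the RefSeq start, Odc1 held 4 GC boxes (3 of them in the run shown), Sat1 held 2 and Ass1 held 1, and 32.7% of the 32851 RefSeq windows of this length held at least 1. The E-box CACGTG, the palindrome bound by Myc, had 1 match in the window of Ass1 and none in those of Odc1 and Sat1, and 6.02% of all windows held it.

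After the filter on cells, 1442 WT cells (61.8% of the barcodes, median 7658.5 UMIs) and 2961 TSK cells (66.7%, median 7302) remained, and the 263 barcodes that occurred in both libraries were left out. Cells were named from their own marker UMIs, none of which came from the 7 genes. There were 339 macrophage-like cells in the WT library (median 9750 UMIs) and 458 in the TSK library (median 6328.5). All 10 macrophage markers had UMIs in both, summing to 6717 per 1000000 UMIs in WT and 9958 in TSK. T-like, cancer-like, fibroblast-like, neutrophil-like and endothelial-like cells also reached 20 cells in each library. Levels below are the UMIs of a gene per 1000000 UMIs of the class (CPM), with an exact Poisson 95% interval; shares carry an exact binomial one and ratios between libraries an exact conditional one. These intervals cover counting error only.

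Most Arg1 UMIs came from cells named macrophage-like. These cells held 90.8% of all Arg1 UMIs from WT tumors (95% interval 90.3% to 91.3%) and 90.6% of those from TSK tumors (90.1% to 91.1%), while they made up 23.5% and 15.5% of the cells. Nos2 and Slc7a2 followed at a distance, with 69.8% and 68.2% of the Nos2 UMIs and 75.02% and 71.5% of the Slc7a2 UMIs in macrophage-like cells (WT and TSK in that order). These parts depend on which cells keep the name: without cells that held 2 or more UMIs of another class, macrophage-like cells (124 and 281 left) held 19.0% and 50.2% of the Arg1 UMIs of all cells kept, 13.3% and 33.3% of Nos2 and 12.7% and 37.9% of Slc7a2. Under the main rule the macrophage part was 44.3% and 31.3% for Ass1 and 39.9% and 17.2% for Sat1. It was smallest for the polyamine synthesis enzymes, at 13.6% and 4.31% for Odc1 and 8.97% and 0.812% for Srm, where cancer-like cells held 83.4% and 92.1% of the UMIs of the TSK library. By level, 3 of the 7 genes (Arg1, Slc7a2 and Ass1) were highest in macrophage-like cells in both libraries among the 6 larger classes, beside 7.56% of 11905 genes tested. Nos2 was highest in macrophage-like cells in WT and in neutrophil-like cells in TSK, Odc1 in T-like cells, Srm in cancer-like cells and Sat1 in neutrophil-like cells.

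**Figure D1:**
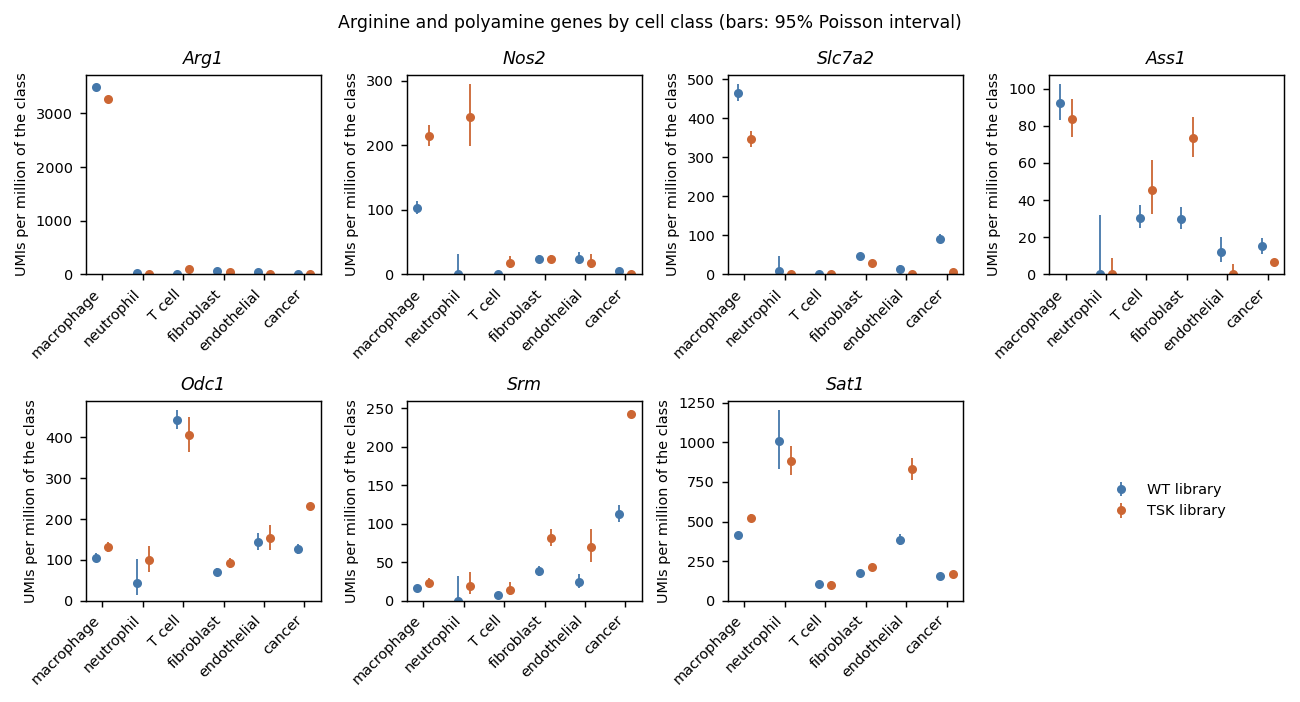
Level of each gene in the 6 classes with at least 20 cells in both libraries, as UMIs per 1000000 UMIs of the class (y axis, a linear scale of its own for each gene); points are libraries and bars exact Poisson 95% intervals. Arg1 stands at 3488 and 3259 CPM in macrophage-like cells and under 100 CPM elsewhere, whereas Odc1, Srm and Sat1 peak in T-like, cancer-like and neutrophil-like cells.

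Arg1 in macrophage-like cells reached 3488 CPM in WT (3429 to 3546, 13724 UMIs). In TSK it reached 3259 CPM (3196 to 3322, 10456 UMIs), 0.934 times the WT level. The log2 ratio of TSK over WT was -0.10 (-0.13 to -0.06), and it turned to 0.11 without cells that held a resident-marker UMI and to 0.24 without cells that held 2 or more UMIs of another class. Without the 3 WT cells with most Arg1 the ratio was -0.0012 (-0.039 to 0.036). Without the 3 such TSK cells it was -0.19 (-0.22 to -0.15). The gene was spread very unevenly over the cells. In WT 28 of 339 cells held 50% of the Arg1 UMIs and in TSK 41 of 458 did, the median cell had 3.45 and 11.3 Arg1 UMIs per 10000, and the highest cell had 295 and 183. With every cell thinned to 500 UMIs, an Arg1 UMI was found in 40.1% of WT macrophage-like cells (34.9% to 45.6%) and 43.2% of TSK ones (38.6% to 47.9%), and without thinning in 59.0% and 64.0%. T-like cells, which should lack the gene, showed 0.680% and 2.14% at the same thinning (4.54% and 4.98% without), with medians of 6779 and 2873 UMIs per cell before it.

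Outside macrophage-like cells Arg1 was low and rested on few cells. Fibroblast-like cells had 72.1 CPM in WT and 52.3 CPM in TSK, and 146 of the 239 WT UMIs lay in 1 cell, without which the WT level was 28.3 CPM (22.8 to 34.7), below that of TSK. Endothelial-like cells had 66 UMIs in WT, of which 56 lay in 1 cell, and 0 in TSK. T-like cells had 7.49 CPM in WT and 99.7 CPM in TSK, where 2 of 281 cells held 50% of the 90 UMIs. Cancer-like cells stood at 9.63 and 8.93 CPM (23 of the 32 WT UMIs in 1 cell, 2.76 CPM without it) and neutrophil-like cells at 17.3 and 14.2 CPM, with wide overlap of the intervals. Macrophage marker UMIs occurred in these classes too: per 100 of them there were 51.9 and 32.7 Arg1 UMIs in macrophage-like cells, 19.7 and 91.8 in T-like cells, 49.2 and 55.3 in fibroblast-like cells and 32.0 and 24.3 in cancer-like cells. The part of macrophage RNA or of cell pairs in these counts was not tested. Cells with markers of several classes held 814 CPM in WT (65 cells) and 269 CPM in TSK (78 cells).

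Nos2 was higher in the macrophage-like cells of the TSK library. It had 103 CPM in WT (93.1 to 113, 405 UMIs) and 214 CPM in TSK (199 to 231, 688 UMIs), a log2 ratio of 1.06 (0.88 to 1.24), or 2.08-fold (1.84 to 2.36). Here 4.52% of the 8321 genes with enough UMIs were at least 2-fold higher in TSK and 1.92% at least 2-fold lower. Of the 7 genes, 1 was past 2-fold upward, Nos2, and 0 downward. Without cells that held a resident-marker UMI, Nos2 stood at 0.98 and 0 were past it, with no share of all genes given. The median log2 ratio over the 8321 genes was 0.20, and relative to it Nos2 stood at 0.86, short of 2-fold. With cells thinned to 500 UMIs, a Nos2 UMI was found in 4.13% of WT macrophage-like cells (2.28% to 6.83%) and 7.86% of TSK ones (5.57% to 10.7%). Of the T-like cells, 0 of 441 and 2 of 281 had a Nos2 UMI. The exact upper limit for the share at the count of 0 was 0.833%. At 2000 UMIs the shares were 10.3% (7.18% to 14.1%) and 19.6% (15.8% to 23.8%), and without thinning 18.3% and 27.7%. In WT 9 cells and in TSK 19 cells held 50% of the Nos2 UMIs. The ratio kept its sign under all 10 alternative ways of choosing, weighting or scaling the cells, between 0.86 and 1.35.

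**Figure D2:**
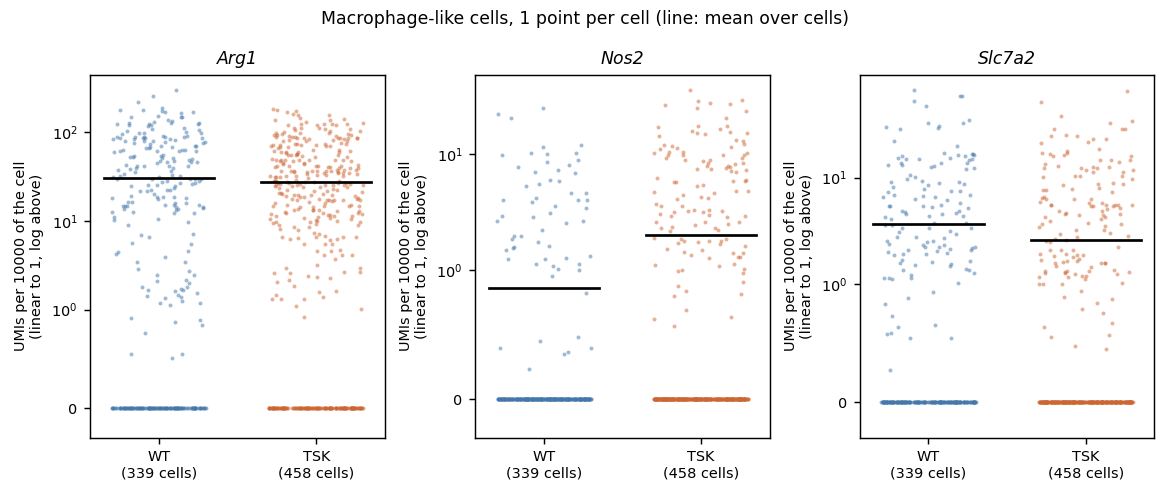
Arg1, Nos2 and Slc7a2 in each macrophage-like cell, as UMIs per 10000 UMIs of the cell (y axis, linear up to 1 and logarithmic above); 1 point is 1 cell, spread sideways at random, and the black line is the mean over cells. Many cells are at 0 for each gene, and the mean of Nos2 is 0.864 in WT and 1.996 in TSK.

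Neutrophil-like cells were the other site of Nos2, in the TSK library. There the gene had 103 UMIs in 199 cells, or 243 CPM (198 to 295), spread over 43 cells with at most 7 UMIs in 1 cell. The 36 WT neutrophil-like cells had 0 Nos2 UMIs among 115350, with an exact upper limit of 32.0 CPM. With the WT count read as 3 UMIs (26.0 CPM), the log2 ratio of TSK over WT was 3.22. Without the 3 TSK cells with most Nos2, the exact interval of the ratio had its lower end at 2.62. The TSK neutrophil-like level was close to that of TSK macrophage-like cells, with overlapping intervals. Per 100 macrophage marker UMIs there were 83.7 Nos2 UMIs in TSK neutrophil-like cells and 2.15 in TSK macrophage-like cells. The neutrophil-like classes differed in their markers. Neutrophil markers summed to 30845 CPM in WT and 68146 CPM in TSK, and monocyte markers to 442 and 271 CPM. At 500 UMIs per cell, 9.55% of the TSK neutrophil-like cells had a Nos2 UMI. Fibroblast-like cells had 23.5 CPM in WT and 24.0 CPM in TSK, and endothelial-like cells had 24.3 and 18.1 CPM, levels whose intervals overlapped within and between the libraries, with 2 of 158 WT fibroblast-like cells holding 50% of their Nos2 UMIs. T-like and cancer-like cells were lower, at 0.312 and 5.11 CPM in WT and at 17.7 and 1.22 CPM in TSK. In WT cancer-like cells 13 of the 17 Nos2 UMIs lay in 1 cell, and the level without it was 1.22 CPM.

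Slc7a2, the arginine transporter, was lower in the TSK library. In macrophage-like cells it had 466 CPM in WT (444 to 487, 1832 UMIs) and 347 CPM in TSK (327 to 368, 1113 UMIs). The log2 ratio was -0.42 (-0.53 to -0.32), and -0.62 relative to the median gene. Without cells that held 2 or more UMIs of another class, it lay the other way, at 0.15 (-0.05 to 0.36). The highest WT cell alone carried 182 of the 1832 UMIs, and 13 WT and 18 TSK cells held 50% of them. Without the 3 WT cells with most Slc7a2 the log2 ratio was -0.07 (-0.19 to 0.04), an interval across 0. Without the 3 such TSK cells it was -0.64 (-0.75 to -0.52). At 500 UMIs a Slc7a2 UMI was found in 12.4% of WT macrophage-like cells (9.08% to 16.4%) and 8.08% of TSK ones (5.75% to 10.96%), intervals that overlapped, and in 0 of 441 and 1 of 281 T-like cells. At 2000 UMIs the shares were 25.2% and 24.1%.

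Among the larger classes Slc7a2 came next in cancer-like cells of the WT library, at 91.5 CPM (81.5 to 102), against 5.92 CPM in those of the TSK library (5.14 to 6.78). Of the 304 WT UMIs 110 lay in 1 cell and 3 of 100 cells held 50%, and without those 3 cells 45.8 CPM (38.6 to 53.9) remained. A Slc7a2 UMI was found in 42 of the 100 WT cancer-like cells and 148 of the 1186 TSK ones, and in 8.25% (3.63% to 15.6%) and 1.13% (0.603% to 1.93%) at 2000 UMIs per cell, so the WT class was higher on each of these counts. Cancer markers summed to 4066 CPM in the WT class and 2419 CPM in the TSK class. Whether the classes held the same kinds of cells was not tested, for Slc7a2, Odc1 or Srm. Cancer-like cells with at least 10000 UMIs were split by the proliferation genes Mki67 and Top2a. Those with 2 or more UMIs of them had 32.0 CPM in WT (41 cells) and 4.46 CPM in TSK (734 cells). Those with none had 209 CPM in WT (30 cells) and 13.6 CPM in TSK (122 cells). Fibroblast-like cells had 47.7 CPM in WT and 28.6 CPM in TSK over 32 and 36 cells with a UMI, and the 46 mural-like cells (pericytes and smooth muscle) of the TSK library had 94.4 CPM. Endothelial-like cells had 14.6 CPM in WT and 0 UMIs in TSK, and T-like and neutrophil-like cells held at most 2 UMIs in a library. Per 100 macrophage marker UMIs, fibroblast-like cells had 32.5 and 30.3 Slc7a2 UMIs, against 6.93 and 3.48 in macrophage-like cells.

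Ass1, which begins the rebuilding of arginine from citrulline, had no single direction in macrophage-like cells. It had 92.5 CPM in WT (83.2 to 103) and 83.8 CPM in TSK (74.1 to 94.5), with a log2 ratio of -0.14 (-0.37 to 0.09). Relative to the median gene the ratio was -0.34 (-0.57 to -0.11), with the interval off 0. It was 0.32 (0.03 to 0.61) in macrophage-like cells with C1q and few resident markers and -0.63 (-1.15 to -0.14) in those with little C1q. In fibroblast-like cells it was higher in TSK, at 29.9 CPM in WT (24.3 to 36.4) and 73.5 CPM in TSK (63.5 to 84.8), a log2 ratio of 1.30 (0.94 to 1.67), where the median gene of the class stood at 0.24. These UMIs lay in 22 WT and 46 TSK cells, and 3 and 7 of them held 50%. In cancer-like cells it was low and lay the other way, at 15.0 and 6.69 CPM. T-like cells had 30.6 and 45.4 CPM, the 18 WT and 17 TSK dendritic-like cells had 145 and 109 CPM with overlapping intervals, and neutrophil-like cells had 0 UMIs in both libraries.

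**Figure D3:**
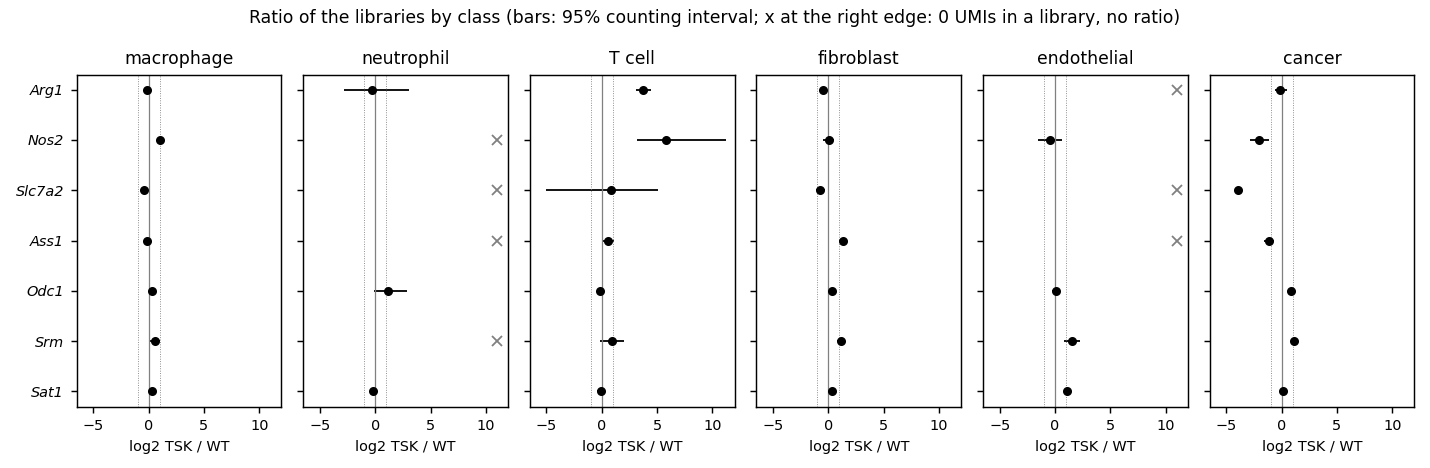
Log2 ratio of the TSK over the WT library for each gene (rows) in each class (panels), with exact conditional 95% intervals; dotted lines mark 2-fold and a cross at the right edge marks a gene with 0 UMIs in a library. Nos2 is at 1.06 in macrophage-like cells, Srm is at 1.10 in cancer-like and in fibroblast-like cells, and Slc7a2 is at -3.95 in cancer-like cells.

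Odc1, the first enzyme of polyamine synthesis, was highest in T-like cells, at 443 CPM in WT (420 to 467) and 405 CPM in TSK (365 to 449), with a log2 ratio of -0.13 (-0.30 to 0.04). Within them it was highest in cells with Cd4 and no Cd8 UMI, at 1000.3 CPM (905 to 1102) in 55 WT cells and 619 CPM (464 to 810) in 26 TSK cells. T-like cells with neither had 379 CPM in WT and 588 CPM in TSK (488 to 702), the last overlapping the Cd4 cells of that library. Cells with Cd8a or Cd8b1 and no Cd4 UMI had 341 CPM (318 to 366) in WT and 300 CPM (258 to 347) in TSK. T-like cells with at least 2 UMIs of the proliferation genes Mki67 and Top2a stood at 457 and 423 CPM, and those with none at 460 and 394 CPM, so the intervals overlapped.

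The other classes followed with lower Odc1. Cancer-like cells had 126 CPM in WT (114 to 139) and 233 CPM in TSK (228 to 238), a log2 ratio of 0.88 (0.74 to 1.03) where the median gene stood at 0.13. Among cancer-like cells with at least 10000 UMIs, those with proliferation UMIs had 142 CPM in WT and 240 CPM in TSK, and those without had 87.5 and 225 CPM, so the TSK library was higher in both and the intervals were apart. In cancer-like cells under 10000 UMIs Odc1 had 115 CPM in WT (57.5 to 206, 22 cells) and 154 CPM in TSK (133 to 176, 254 cells), with overlapping intervals. Endothelial-like cells had 144 and 153 CPM and macrophage-like cells 105 and 132 CPM, which gave macrophage-like cells a log2 ratio of 0.32 (0.12 to 0.52), or 0.13 relative to the median gene (-0.07 to 0.32). Fibroblast-like cells had 71.2 and 91.3 CPM, and neutrophil-like cells 43.3 and 99.1 CPM on 5 and 42 UMIs. By the mean over cells, the 46 mural-like cells of the TSK library had 2.43 Odc1 UMIs per 10000. TSK cancer-like cells had 2.13 and TSK T-like cells 4.22.

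Srm, which makes spermidine, was highest in cancer-like cells. They had 113 CPM in WT (102 to 125, 375 UMIs) and 242 CPM in TSK (237 to 247, 8511 UMIs), a log2 ratio of 1.10 (0.95 to 1.26). In fibroblast-like cells it had 38.0 CPM in WT (31.7 to 45.3) and 81.7 CPM in TSK (71.0 to 93.5), again a log2 ratio of 1.10. In endothelial-like cells it had 24.3 CPM (16.4 to 34.6) and 69.5 CPM (50.9 to 92.6), a log2 ratio of 1.52. Macrophage-like cells were among the lowest, at 16.01 CPM (63 UMIs) and 23.4 CPM (75 UMIs), with a log2 ratio of 0.55 (0.04 to 1.05). The interval took in 0 relative to the median gene (0.35, -0.15 to 0.86) and with at most 5% mitochondrial UMIs (0.44, -0.09 to 0.97), and the ratio was 1.29 (0.21 to 2.53) with at most 10000 UMIs per cell. T-like cells had 7.49 and 14.4 CPM. By the mean over cells, the 46 mural-like cells of the TSK library had 1.72 Srm UMIs per 10000. TSK cancer-like cells had 2.02 and TSK fibroblast-like cells 0.912. The WT cancer-like class held only 100 cells against 1186 in TSK, and cancer markers also had UMIs in the other classes, with 344.6 CPM in WT and 306.2 CPM in TSK in fibroblast-like cells, 73.6 and 404.7 CPM in endothelial-like cells, 11.2 and 135 CPM in T-like cells and 9.66 and 63.6 CPM in macrophage-like cells. In the same split by proliferation UMIs, Srm stood at 135 and 266 CPM in cells with them and at 81.4 and 125 CPM in cells without. The part of cancer cell RNA in the Srm of other classes was not tested. Spermine synthase (Sms), the enzyme after Srm, had 131 CPM in WT and 323 CPM in TSK cancer-like cells.

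Sat1, the enzyme of polyamine breakdown, was highest in neutrophil-like cells, at 1006 CPM in WT (831 to 1206) and 882 CPM in TSK (795 to 976), with overlapping intervals. Endothelial-like cells had 384 CPM in WT (350 to 420) and 829 CPM in TSK (761 to 901), the latter overlapping neutrophil-like cells, a log2 ratio of 1.11 (0.93 to 1.29) where the median gene stood at 0.25. Macrophage-like cells had 412 CPM in WT (392 to 432) and 520 CPM in TSK (495 to 546), with a log2 ratio of 0.34 (0.24 to 0.44) and 0.14 relative to the median gene. This difference lay the other way, at -0.11, when cells over 10000 UMIs were left out, and at -0.13 without cells that held 2 or more UMIs of another class. Fibroblast-like cells (173 and 212 CPM), cancer-like cells (156 and 166 CPM) and T-like cells (104 and 99.7 CPM) were lower.

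Within macrophage-like cells, Slc7a2 and Nos2 were found more often where Arg1 was high. Cells with at least 2000 UMIs (321 WT and 398 TSK) were thinned to 2000 and sorted by their Arg1 UMIs. Slc7a2 was found in 3.95% of the WT cells with 0 Arg1 UMIs (1.46% to 8.39%), in 31.7% of those with 1 to 9 (21.9% to 42.9%) and in 56.3% of those with 10 or more (45.3% to 66.9%). In the TSK library these shares were 4.61%, 29.3% and 48.3%. Nos2 was found in 1.32%, 14.6% and 21.8% of cells over the same steps in WT, and in 2.63%, 20.4% and 47.2% in TSK. In the Arg1-rich cells the share with Nos2 was 13.7% to 32.0% by its interval in WT and 36.5% to 58.1% in TSK. Sat1 and Odc1 showed no such steps, with Sat1 in 55.3%, 52.4% and 43.7% of WT cells and Odc1 in 10.5%, 17.1% and 17.2%, and intervals that overlapped. Of the cells with a Nos2 UMI, 31 of 33 in WT and 74 of 78 in TSK also had Arg1, and 60.6% and 48.7% had Slc7a2, which was found in 21.2% and 18.1% of the cells without Nos2.

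**Figure D4:**
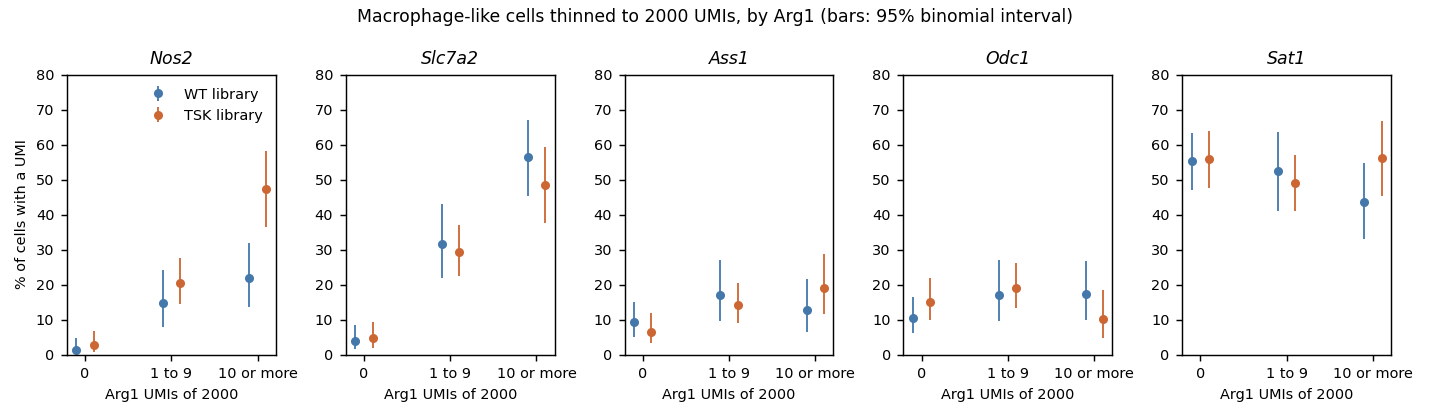
Percentage of macrophage-like cells with a UMI of each gene (y axis), after thinning to 2000 UMIs, by the number of Arg1 UMIs in the cell (x axis); bars are exact binomial 95% intervals. The shares of Nos2 and Slc7a2 are highest in cells with 10 or more Arg1 UMIs in both libraries, at 21.8% and 47.2% for Nos2, and Sat1 stays between 43.7% and 56.2%.

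Macrophage-like cells were also divided by complement C1q, a mark of mature tissue macrophages, and by Cd163, Folr2 and Lyve1, genes of long-lived tissue macrophages (resident markers). Cells with C1q and few resident markers had 3826 CPM of Arg1 in WT (157 cells) and 4066 CPM in TSK (267 cells). Cells with little C1q had 3084 CPM (173 cells) and 2990 CPM (119 cells), and monocyte markers summed to 3363 and 3020 CPM there against 1870 and 925 CPM in cells with C1q. The 72 resident-marker cells of the TSK library had 877 CPM (804 to 954), and the 9 such cells of the WT library had 2750 CPM (2487 to 3034). The WT value rested on few cells: the highest had 106 and 70.0 Arg1 UMIs per 10000, and no other had more than 1.24. Nos2 was higher in TSK in cells with C1q (118 and 267 CPM, log2 ratio 1.18, 0.96 to 1.40) and in those with little C1q (91.5 and 235 CPM, 1.36, 1.01 to 1.71). In resident-marker cells Nos2 had 0 UMIs in WT and 22.9 CPM in TSK. Slc7a2 followed the same order as Arg1 in TSK, at 463 CPM with C1q, 223 CPM with little C1q and 84.9 CPM with resident markers. Sat1 was higher than these in the resident-marker cells of TSK, at 655 CPM (592 to 722), against 485 CPM (455 to 517) in cells with C1q. Resident-marker cells made up 2.65% of macrophage-like cells in WT and 15.7% in TSK. Without every cell that held a resident-marker UMI, the log2 ratio of TSK over WT was 0.11 for Arg1, 0.98 for Nos2, -0.34 for Slc7a2 and 0.07 for Sat1.

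**Figure D5:**
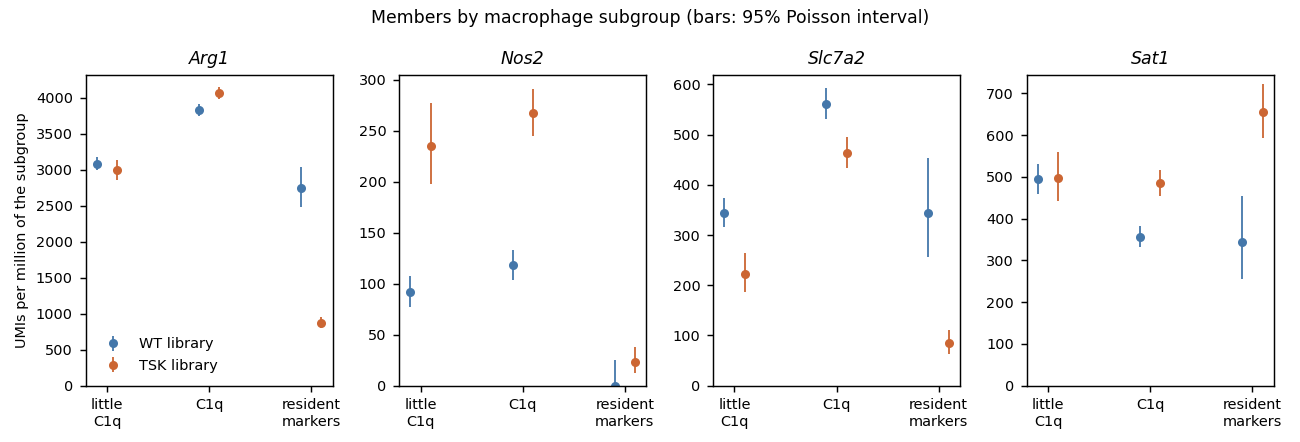
Level of Arg1, Nos2, Slc7a2 and Sat1, as UMIs per 1000000 UMIs (y axis), in macrophage-like cells with little C1q, with C1q and with resident markers (x axis); bars are exact Poisson 95% intervals. In TSK the resident-marker cells are lowest for Arg1 (877 CPM), Nos2 (22.9 CPM) and Slc7a2 (84.9 CPM) and highest for Sat1 (655 CPM); the WT resident-marker group holds 9 cells.

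The rest of the pathway was read from 7 lists of 61 genes, of which 43 had enough UMIs in macrophage-like cells. Of these 43, 3 were at least 2-fold higher in TSK (Nos2, Mtap and Atp13a2) and 0 at least 2-fold lower, beside 4.52% and 1.92% of all genes, with a median log2 ratio of 0.22 beside 0.20 over all genes. Relative to the median gene, 1 was 2-fold higher (Atp13a2, 1.14) and 1 was 2-fold lower (Gatm, -1.16), beside 2.66% and 3.16% of all genes. Arginine uptake and the urea cycle had a median of -0.24 over 6 genes, nitric oxide and its cofactor 0.37 over 6, polyamine synthesis and its control 0.39 over 10, and polyamine breakdown and transport 0.11 over 6. Hypusine synthesis stood at 0.19 over 3, ornithine, proline and creatine at 0.29 over 7 and Myc targets linked to polyamines at 0.34 over 5. These lay nearer the median of all genes than arginine uptake and the urea cycle did. The highest ratio was that of Atp13a2, a lysosomal polyamine exporter, with 40.7 CPM in WT and 103 CPM in TSK (log2 1.34, 1.07 to 1.62), and the next that of Mtap, which salvages methionine from polyamine synthesis, on 28 and 50 UMIs (1.13, 0.44 to 1.85). The lowest was that of Gatm, which takes arginine into creatine synthesis, with 682 and 351 CPM (-0.96, -1.06 to -0.86). Slc7a1, the general arginine transporter, had 27.4 and 19.3 CPM (-0.51, -0.98 to -0.04), and the mitochondrial arginase Arg2 had 95.04 and 75.1 CPM (-0.34, -0.58 to -0.10). Other list genes at the ends of the range were Spr (10.7 and 19.6 CPM) and Gamt (6.35 and 11.8 CPM) on the higher side and Amd1 (19.6 and 12.8 CPM) and the polyamine transporter Atp13a3 (155 and 108 CPM) on the lower. The cofactor enzyme of nitric oxide synthases, Gch1, had 98.9 and 75.4 CPM (-0.39, -0.63 to -0.16), on the other side of 0 from Nos2.

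Around Odc1 and Sat1 the macrophage-like cells carried abundant control genes. Antizyme Oaz1, which sends ornithine decarboxylase to the proteasome, had 340 and 396 CPM (log2 ratio 0.22, 0.11 to 0.33), and the antizyme inhibitor Azin1 had 184 and 176 CPM (-0.06, -0.23 to 0.10). Sms had 31.3 and 46.1 CPM (0.56, 0.21 to 0.92), and spermine oxidase Smox, which turns spermine back to spermidine, had 161 and 150 CPM with an interval across 0 (-0.27 to 0.07). Eif5a, the translation factor that carries the spermidine-derived residue hypusine, had 299 and 323 CPM, and the Myc target Ncl had 317 and 490 CPM (0.63, 0.52 to 0.74). Argininosuccinate lyase Asl, the step after Ass1, had 18.8 and 24.3 CPM and Myc 7.62 and 9.66 CPM, both with intervals of the ratio across 0. In cancer-like cells Myc had 98.7 and 175 CPM (0.83, 0.67 to 0.99), beside 0.88 for Odc1 and 1.10 for Srm; the injected line carries a myc oncogene, and its transcripts and those of the mouse gene were not told apart.

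The patterns most like those of the members were sought over 13 points (each class with at least 20 cells in a library) among 11892 genes, by Pearson's r of log2(CPM + 10). The points share libraries, depth and marker-based names, so the values are a description. Pid1 (r = 0.98), Naaa (0.97) and the macrophage growth factor receptor Csf1r (0.96), itself a naming marker, were closest to Arg1. Closest to Nos2 were Atp6v0d2 (0.92), Ap5s1 (0.91) and Tmem268 (0.88), and closest to Slc7a2 were Lacc1 (0.93), Anxa4 (0.92) and Fam234a (0.90). Slc41a2 (0.92), Bscl2 (0.91) and Maf (0.91) were most like Ass1. For Odc1 the nearest were Gtpbp1 (0.98), Far1os (0.96) and Pwwp2a (0.95), for Srm Ccdc34 (0.99), Prmt7 (0.98) and the cell cycle kinase Cdk4 (0.98), and for Sat1 Slc31a2 (0.95), Pgs1 (0.94) and Marcksl1 (0.92). Among the members themselves, Arg1 was most like Slc7a2 (0.78), then Ass1 (0.70) and Nos2 (0.65), and Odc1 and Sat1 were least like each other (-0.66).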

How the data were processed

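The 2 libraries of cells from pooled subcutaneous tumors, 1 per genotype, were analysed. Per the file headers, the deposited values are raw UMI counts per gene and barcode from Cell Ranger 7.1.0 (the submitters' processing notes name version 7.1.1 and the build mm10), with no normalization. The authors set upper limits on UMIs and genes in their own analysis. Here cells with at least 200 genes, at least 500 UMIs and at most 10% mitochondrial UMIs were kept with no upper limit, and doublets were not called. A cell took the name of the list of markers (12 lists) with the highest UMIs per 10000 relative to the 90th percentile of that list, given at least 3 UMIs of at least 2 markers and a lead of 2-fold over the next list. "Mixed" and unnamed cells entered no class. Resident-marker cells had at least 2 UMIs of those markers and 5 per 10000 UMIs, and cells with C1q at least 10 C1q UMIs per 10000. The naming rule and these limits were set after the counts had been seen, and the members, markers and lists were chosen with earlier results of these data known.

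UMIs were summed per class and library and divided by the class total (CPM). Counts came from 17070622 UMIs in WT cells and 45661542 in TSK cells. Counts past 2-fold took genes whose UMIs in macrophage-like cells reached 50 over both libraries and 10 in 1 of them, for which 0.5 UMIs were added to each sum. Where a sum was 0, 3 UMIs stood in for it in the ratio, which is not an exact limit. Thinning drew UMIs of each cell at random without replacement, once. The 95% intervals of ratios were checked on simulated Poisson sums, which leave out the uneven spread of UMIs over cells. The other intervals were not checked in this way. Of the gene identifiers, 99.6% (32158) were in GENCODE M21 for GRCm38, which gave the coordinates. The list gene Pycr3 was matched to no feature and not analysed here. Besides the members, the text names in each list the gene with the highest CPM, the 5 list genes with the highest and the 5 with the lowest ratio, those a member is compared with by its role, and the 3 nearest patterns of each member; Gch1 was named after its values were seen. Intervals were computed with scipy 1.17.1, tables with pandas 2.3.3 and numpy 2.4.6 under Python 3.11.15, and plots with matplotlib 3.10.9. Alternatives changed the limits on cells, the naming rule, the weighting of cells, the scaling, the thinning and the minimum UMIs of a gene. Cells with most UMIs of a gene were also left out, from 1 library at a time.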

Additional observations from a re-analysis of the deposited data

Results flagged for a closer look

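Several members differed between the libraries in opposite directions in different classes, each by more than its counting interval; the differences between classes were not tested. For Arg1 the log2 ratio of TSK over WT was 3.73 in T-like cells, against -0.10 in macrophage-like cells, -0.46 in fibroblast-like cells and -3.56 in endothelial-like cells (0 UMIs in TSK, read as 3). The fibroblast-like value turned to 0.89 (0.49 to 1.28) without the 1 WT cell with most Arg1 UMIs, and 56 of the 66 WT endothelial-like UMIs lay in 1 cell. Without the 3 WT endothelial-like cells with most Arg1, the interval reached up to 0.62. The macrophage-like value was -0.0012 (-0.039 to 0.036) without the 3 such WT cells. The T-like value was 1.99 (1.14 to 2.86) without the 3 such TSK cells. For Nos2 the log2 ratio was 1.06 in macrophage-like cells, 5.83 in T-like cells (1 UMI in WT) and 3.22 in neutrophil-like cells (0 UMIs in WT, read as 3). In cancer-like cells it was -2.06 (17 and 43 UMIs). The T-like value was 2.87 (-1.39 to 8.76) without the 3 TSK cells with most Nos2. The cancer-like value was 0.0049 (-1.46 to 1.94) without the 1 WT cell that held 13 of the 17 UMIs. For Ass1 the log2 ratio was 1.30 in fibroblast-like cells and 0.57 in T-like cells, against -1.17 in cancer-like cells and -1.42 in endothelial-like cells (0 UMIs in TSK, read as 3). The cancer-like value of Ass1 was -0.22 (-0.82 to 0.43) without the 3 WT cells with most of it. Without the 3 such WT endothelial-like cells, the interval reached up to 0.27. The T-like value was 0.39 (-0.21 to 0.95) without the 1 TSK cell with most Ass1. The fibroblast-like value was 0.89 (0.50 to 1.27) without the 3 such TSK cells. In the T-like cells of the TSK library, 2 cells held 50% of the Arg1 UMIs and 1 cell held 50% of the Nos2 UMIs.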

How the results depend on the processing

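Each genotype was 1 library, so no library could be left out and the spread between tumors is unknown. No paired analysis was possible because each genotype has 1 library. Depth limits the low values: 63 and 75 Srm UMIs and 405 and 688 Nos2 UMIs stood behind the macrophage-like levels. Under 10 alternatives the log2 ratio of TSK over WT in macrophage-like cells kept its sign in 10 for Nos2 (0.86 to 1.35), Odc1 (0.13 to 0.49) and Srm (0.20 to 1.29), the last 2 with intervals across 0 under some, in 9 for Slc7a2, in 8 for Sat1 and in 7 for Arg1 and Ass1. With at most 10000 UMIs and genes per cell (174 WT and 351 TSK macrophage-like cells) the ratio was -0.20 for Arg1, 1.29 for Srm and, turned in sign, -0.11 for Sat1. The macrophage part of the UMIs was then 88.3% and 93.6% for Arg1, 85% and 63.5% for Nos2 and 86.4% and 78.9% for Slc7a2 (WT and TSK), and 5.41% of TSK cells thinned to 500 UMIs had Slc7a2. With shared barcodes kept, the WT part of Slc7a2 was 71.8%. With at most 5% mitochondrial UMIs the Arg1 ratio was -0.020, and with at least 2000 UMIs per cell the TSK part of Arg1 was 91.2%. With 6 UMIs of 4 markers required, the Arg1 ratio was -0.16, the parts were 89.98% and 87.1% for Arg1, 63.0% for Nos2 in TSK and 72.1% for Slc7a2 in WT, and 0 members were 2-fold higher. Without cells that held 2 or more UMIs of another class (124 WT and 281 TSK macrophage-like cells left), the signs of Arg1 (0.24), Slc7a2 (0.15) and Sat1 (-0.13) turned. Nos2 was then at 1.35, Ass1 at 0.14 and Srm at 1.10, 2 members were 2-fold higher, and the parts, taken of all cells kept, were 19.0% and 50.2% for Arg1, 13.3% and 33.3% for Nos2 and 12.7% and 37.9% for Slc7a2. With equal weight for each cell the ratios were -0.17 for Arg1 and 0.16 for Sat1. Scaled by the median of gene ratios they were -0.29 for Arg1, 0.86 for Nos2, -0.62 for Slc7a2 and 0.14 for Sat1, with 0 members 2-fold higher. Without cells that held a resident-marker UMI, Arg1 turned to 0.11 and Sat1 was at 0.067, with 0 members 2-fold higher. In cells with C1q and few resident markers, an alternative chosen after seeing the data, Arg1 turned to 0.088, and Slc7a2 was at -0.28, Ass1 at 0.32 and Sat1 at 0.44. Thinned to 2000 UMIs, 52.6% and 61.8% of cells had Arg1, 10.3% and 19.6% Nos2 and 25.2% and 24.1% Slc7a2, and without thinning 59.0% and 64.0%, 18.3% and 27.7%, and 39.5% and 32.5%. With at least 200 UMIs per gene, 105 genes were 2-fold higher and 63 lower, of a number of genes that is not given. The share of all genes 2-fold higher was 2.66% under the scaling by the median. For the other alternatives it is not given, so their counts of members have no background to be read against. Leaving out the cells with most UMIs of a gene, also chosen after seeing the data, turned the Arg1 ratio of fibroblast-like cells. Cells were left out of 1 library at a time, which tends to lower the level of that library alone. Among others, intervals then took in 0 for Arg1 and Slc7a2 in macrophage-like cells and for Nos2 and Ass1 in cancer-like cells. The same held for Nos2 and Ass1 in T-like cells and for Arg1 and Ass1 in endothelial-like cells, with the values given above. For Srm in macrophage-like cells it held without 1 TSK cell (0.49, -0.02 to 1.00). Nos2 in macrophage-like cells stayed between 0.84 and 1.35. With 3 macrophage-like cells left out of each library, Arg1 stood at 3261 CPM in WT (3204 to 3319) and 3067 CPM in TSK (3006 to 3129). Slc7a2 then stood at 364 CPM in WT (345 to 384) and 299 CPM in TSK (280 to 319), so both remained lower in TSK. The cause of these changes was not tested, beyond the fewer cells and genes that the limits themselves left.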
